A study of Mus musculus with 12 samples.

Results

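Respiratory complex I subunits were read in ribosome-associated RNA from parvalbumin interneurons of the mouse cortex. They were taken as every gene of the deposited table whose symbol is Nduf followed by a, b, c, s or v and a number, which gave 36 of 13190 genes. Libraries came from PV-Cre k/+; RiboTag k/k mice on a C57BL/6 background. In such mice Cre from the parvalbumin gene switches on a tagged ribosomal protein, and ribosomes are pulled down through the tag with the RNA they carry. After weaning, wild-type and Nptx2 KO mice spent 4 weeks or more either group-housed or alone, and the design states 3 biological replicates for each of the 4 groups, 12 libraries in all. The sources do not state the ages and sexes of the mice, or whether a library pooled animals. Nptx2 encodes a secreted pentraxin that clusters AMPA receptors where excitatory inputs contact parvalbumin cells. The labels describe single housing as social stress, and the comparisons ask how genotype, housing and both together bear on the RNA of these cells.

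Complex I oxidises NADH in the mitochondrial matrix, passes the electrons along a flavin and a chain of iron-sulphur clusters to ubiquinone, and pumps protons across the inner membrane. Its matrix arm holds the catalytic core subunits encoded in the nucleus, and its membrane arm holds the proton-pumping core subunits encoded in mitochondrial DNA. Around both arms sit accessory subunits, which are needed for assembly and stability rather than for catalysis itself. Parvalbumin interneurons fire at high rates and are rich in mitochondria, so that oxidative phosphorylation is a much studied property of these cells.

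The name rule took in the 7 nuclear core subunits of the matrix arm, 9 accessory subunits of the matrix arm, 9 accessory subunits of the proximal membrane arm and 10 of the distal membrane arm. It also took in Ndufa4, which was long counted with complex I and is now assigned to complex IV. The acyl carrier protein subunit Ndufab1 and the Ndufaf assembly factors do not match the rule. The 7 mitochondrially encoded subunits were not analysed here. The 36 members lie on 15 chromosomes, and Ndufa1 and Ndufb11 are X-linked.

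Promoters of 32 members were found in the RefSeq promoter table (GRCm38.p6), and the 250 bases before the start were searched on both strands for the binding motifs of 3 factors known to act on nuclear genes of the respiratory chain. The palindromic core of the nuclear respiratory factor 1 (NRF1) motif occurred in 7 of 32 member promoters (21.9%), in 12.6% of the 9040 promoters of genes in the deposited table and in 5.64% of the 27025 promoters of the whole RefSeq table. The ETS family motif CCGGAAG, which GABP binds, occurred in 3 of 32 (9.38%), against 15.9% and 7.83%. The YY1 motif was in 0 of 32, against 0.586% and 0.248%. The median GC content of the member promoters was 57.6%, against 52.4% over all promoters. The stretches below are shown because their genes, the core subunits Ndufv2 and Ndufs3 and the accessory subunits Ndufs6 and Ndufb4, are described by library further on. Capitals mark the motif, each sequence is written 5′ to 3′ on the gene's strand, and all 4 lie on the minus strand of GRCm38.p6. The first 3 hold the NRF1 core, at chr17:66101560-66101589, chr13:73328483-73328512 and chr16:37654540-37654569, and the last holds the ETS motif at chr2:90904730-90904759.
Ndufv2: ccagggctcgtgaGCGCGCGCGCgccgtgc
Ndufs6: ccgccgactgctgtGCGCCTGCGCcggcac
Ndufb4: gagaagcagtGCGCACGCGCagaatacgcg
Ndufs3: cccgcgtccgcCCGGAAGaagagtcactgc
The starts are those of the RefSeq table. In the GENCODE gene models the spans of Ndufs6 and Ndufs3 reach up to 73328542 and 90904827, so that their stretches lie inside the gene there. A match describes these letters only. Ndufb10, the member with the largest differences between groups, had none of the 3 motifs in this window.

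Expression was deposited as log2(FPKM + 1), where FPKM is a fragment count scaled by transcript length and library size. The values were already quantile normalized, so that every library summed to the same 412903 FPKM, and the depth is unknown. Correlations between libraries ran from 0.981 to 0.987. The marker Pvalb was at 9.65 to 10.28 (log2) in all 12 libraries, and the summed FPKM of 6 markers of excitatory neurons was 55.9 to 69.5, against 5440 to 5990 for 11 markers of parvalbumin interneurons. Nptx2 itself read 2.42 ± 0.17 (SD, n = 3) in group-housed wild type, 2.35 ± 0.10 in single-housed wild type, 2.58 ± 0.19 in group-housed KO and 2.55 ± 0.13 in single-housed KO, so its level was not lower under the KO label. The genotype labels could therefore not be checked by the targeted gene, and KO and wild type are used here as labelled, also for every direction given. RNA of Y-linked genes was present in 5 libraries, which were all 3 of single-housed wild type and 2 of single-housed KO. Genes of the amino acid response were high in another set of 5 libraries, with mean deviations of 0.49 to 0.68 log2, against -0.47 to -0.36 in the other 7. Within single-housed KO, library a had no Y-linked RNA and a low amino acid response, while b and c had both, so that in this group these cannot be told apart. Libraries are lettered a, b and c within a group in the order of the table's columns, which carry no replicate numbers.

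Complex I transcripts were abundant, and their levels differed between subunits by up to 10.5-fold. Mean FPKM over the 12 libraries ran from 52.2 for Ndufc1 to 547.9 for Ndufa4, with a median of 192.0 against 9.03 over all 12716 genes tested. Of the 36 members, 34 stood in the top 10% of genes by level and 31 in the top 5%, and 24 lay between 100 and 300 FPKM. The 4 structural classes covered overlapping ranges. The core subunits had a median of 186.7 FPKM, the accessory matrix-arm subunits 179.0 (84.6 to 378.0), the proximal membrane-arm subunits 218.2 (52.2 to 316.6) and the distal membrane-arm subunits 197.0 (61.5 to 383.4). The 3 highest members were Ndufa4 at 547.9, Ndufb9 at 383.4 and Ndufb8 at 382.0 FPKM, and the 3 lowest were Ndufb4 at 76.8, Ndufb2 at 61.5 and Ndufc1 at 52.2 FPKM.

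**Figure D1:**
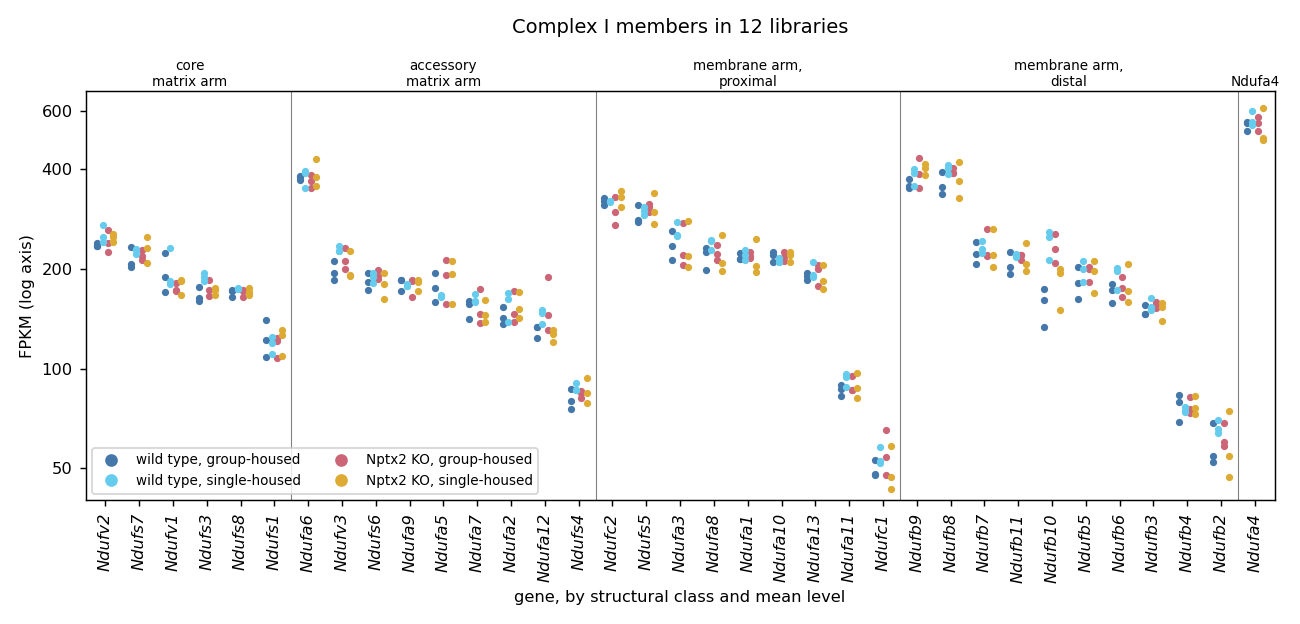
FPKM of complex I members in 12 libraries on a log axis, with genes ordered by structural class and mean level, and each point 1 library coloured by group. The levels span 52.2 (Ndufc1) to 547.9 FPKM (Ndufa4) in the mean. The spread between libraries is small beside the distance from the highest to the lowest member, while members close in level overlap. Ndufb10 has the widest spread.

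Ndufa4 stood apart as the highest, and its log2 values were 9.12, 9.03 and 9.11 in group-housed wild type, 9.09, 9.23 and 9.12 in single-housed wild type, 9.11, 9.17 and 9.03 in group-housed KO, and 9.26, 8.94 and 8.96 in single-housed KO. Ndufb9, a membrane-arm protein of the LYR family, which docks acyl carrier protein, had log2 values of 8.55, 8.46 and 8.48 in group-housed wild type, 8.48, 8.65 and 8.61 in single-housed wild type, 8.76, 8.6 and 8.46 in group-housed KO, and 8.7, 8.59 and 8.66 in single-housed KO. Ndufb8, an integral protein of the distal membrane arm, read 8.62, 8.47 and 8.4 in group-housed wild type, 8.69, 8.66 and 8.6 in single-housed wild type, 8.61, 8.61 and 8.66 in group-housed KO, and 8.72, 8.36 and 8.53 in single-housed KO. Ndufb9 and Ndufb8 did not differ in level beyond their spread, with mean log2 values of 8.58 for both, while the lowest library of Ndufa4 at 8.94 lay above the highest of either at 8.76.

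At the lower end, Ndufb4 read 6.13, 6.33 and 6.4 in group-housed wild type, 6.28, 6.24 and 6.23 in single-housed wild type, 6.38, 6.26 and 6.22 in group-housed KO, and 6.27, 6.21 and 6.39 in single-housed KO. Ndufb2 read 6.12, 5.79 and 5.73 in group-housed wild type, 6.06, 6.02 and 6.15 in single-housed wild type, 5.89, 6.12 and 5.93 in group-housed KO, and 6.24, 5.59 and 5.79 in single-housed KO. Ndufc1, a small membrane-anchored subunit, read 5.75, 5.61 and 5.62 in group-housed wild type, 5.74, 5.72 and 5.88 in single-housed wild type, 6.05, 5.78 and 5.61 in group-housed KO, and 5.89, 5.47 and 5.59 in single-housed KO. These 3 adjoin each other in the order of levels, and the library ranges of Ndufb4 and Ndufb2 overlapped, as did those of Ndufb2 and Ndufc1. Ndufb2 and Ndufc1 varied more than most members, with a range over the 12 libraries of 0.65 and 0.58 log2.

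Between libraries the members were steady. The 12-library range was under 0.5 log2 in 31 of 36 members, and only that of Ndufb10 passed 0.7. The narrowest were Ndufs8 at 0.09, Ndufa10 at 0.11 and Ndufa9 at 0.17. The residual SD, which is the spread left between libraries of one group, had a median of 0.0990 log2 over the members (0.0313 to 0.210), against 0.113 over all genes tested. Among the 1506 tested genes within the members' range of levels the median was lower, at 0.0894, and 57.6% of these had a spread below the members' median.

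The core subunits of the matrix arm included the steadiest member. Ndufs8, which carries iron-sulphur clusters near the ubiquinone site, read 7.43, 7.44 and 7.37 in group-housed wild type, 7.46, 7.45 and 7.45 in single-housed wild type, 7.37, 7.44 and 7.43 in group-housed KO, and 7.42, 7.39 and 7.46 in single-housed KO. Ndufv2, an iron-sulphur protein beside the NADH site, read 7.88, 7.91 and 7.88 in group-housed wild type, 7.97, 7.92 and 8.09 in single-housed wild type, 8.04, 7.91 and 7.82 in group-housed KO, and 8.0, 7.92 and 7.97 in single-housed KO. All 3 single-housed wild-type libraries of Ndufs8 lay above the group-housed ones, and so did those of Ndufv2, by 0.04 ± 0.04 (SE) and 0.10 ± 0.06 log2, with adjusted p = 0.695 and 0.501.

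Ndufv1, the flavin protein that binds NADH, read 7.42, 7.57 and 7.81 in group-housed wild type, 7.53, 7.86 and 7.5 in single-housed wild type, 7.51, 7.43 and 7.44 in group-housed KO, and 7.39, 7.54 and 7.53 in single-housed KO. Ndufs1, the large iron-sulphur protein of the NADH module, read 6.77, 7.14 and 6.94 in group-housed wild type, 6.97, 6.8 and 6.91 in single-housed wild type, 6.93, 6.76 and 6.96 in group-housed KO, and 6.78, 6.99 and 7.04 in single-housed KO. Ndufs7, an iron-sulphur protein at the ubiquinone site, read 7.87, 7.7 and 7.67 in group-housed wild type, 7.8, 7.85 and 7.84 in single-housed wild type, 7.84, 7.78 and 7.74 in group-housed KO, and 7.97, 7.71 and 7.86 in single-housed KO. In these 3 the groups overlapped in every comparison between groups, and the high values of Ndufv1 stood in 1 library of each wild-type group, c in group housing and b in single housing.

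**Figure D2:**
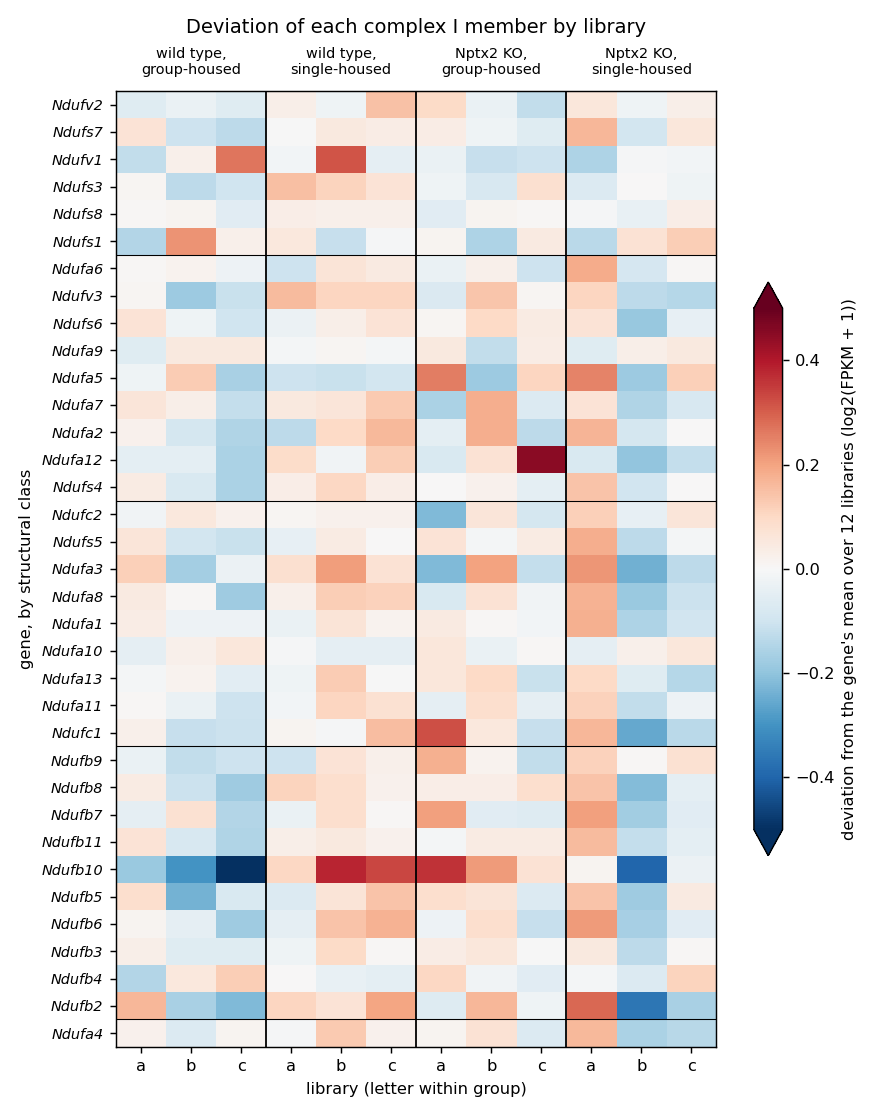
Deviation of each member shown (rows, by structural class) from its own mean over the 12 libraries (columns, lettered within groups) on the log2(FPKM + 1) scale, red above and blue below the mean, with colours capped at 0.5. Ndufb10 is low in group-housed wild type and high in single-housed wild type and group-housed KO, and in single-housed KO library a is red and library b blue for most members.

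Differences between groups were tested for every gene with limma on the deposited values, with p-values adjusted by the Benjamini-Hochberg method over all 12716 genes and called under 0.05. All 36 members passed the filter on low values. In no comparison was a member called. In bulk RNA, fewer cells of a type and less RNA per cell cannot be told apart.

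Single against group housing in wild type gave the largest median shift of the members among the 4 comparisons of 2 groups, which was upward and small. Of the 36 members 31 were higher in single housing and 5 lower, where 50.9% of all genes were higher and 49% lower, and their median difference was 0.084 log2 against 0.003 over all genes. The differences ran from -0.08 to 0.62, and 0 members were called, beside 0.0393% of all genes (5 of 12716). The lowest adjusted p was 0.194. At an unadjusted p under 0.05 there were 3 members, all higher, Ndufb10, Ndufs3 and Ndufv3, which is 8.33% of the members. Of all genes 12.3% had such a p, 5.91% higher and 6.36% lower. In 6 members (16.7%) every single-housed library lay above every group-housed one, beside 10.4% of all genes, and these were Ndufa12, Ndufb10, Ndufs3, Ndufs8, Ndufv2 and Ndufv3. In 0 members did they all lie below, beside 11.5%.

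Each structural class leaned the same way in wild type. Single housing was higher in 6 of 7 core subunits (median 0.086), 7 of 9 accessory matrix-arm subunits (0.088), 8 of 9 proximal membrane-arm subunits (0.049) and 9 of 10 distal membrane-arm subunits (0.103). The members varied together between libraries, so these counts and those over all members are not separate observations of housing, which rests on 3 libraries a group. All 3 single-housed wild-type libraries carried Y-linked RNA and none of the group-housed ones did, so that housing and what this RNA reflects cannot be told apart in this comparison, also for the X-linked Ndufa1 and Ndufb11. Without these 2 genes the median was 0.087. A term for Y-linked RNA, whose estimate rests on the 3 single-housed KO libraries, gave a median of 0.268 for housing in wild type, and a term for the amino acid response gave 0.036, both with 0 members called. The amino acid response was low in all 3 libraries of single-housed wild type and high in 2 of 3 of group-housed wild type, and in the libraries that estimate the Y-linked term it split them in the same way. The summed FPKM of 8 markers of other interneurons was also lower in single-housed wild type (359 to 461) than in group-housed wild type (508 to 778), with none of the 8 at 0. By gene, 6 of the 8 were lower and 2 higher, with a median of -0.252 log2. Of 5 markers of microglia 5 were lower, with sums of 11.5 to 11.9 against 12.9 to 16 FPKM. Pvalb was higher in each single-housed wild-type library than in each group-housed one, at 9.99, 10.17 and 10.12 against 9.96, 9.91 and 9.91. Of all 11 markers of parvalbumin interneurons 6 were higher and 5 lower, with a median of 0.01 log2. Their sums overlapped, at 5470 to 5770 FPKM in single-housed and 5440 to 5890 in group-housed wild type. The part of these in the members' shift was not tested. By library, the members' median deviation ran from -0.002 to 0.065 in single-housed and from -0.101 to 0.010 in group-housed wild type, so the ranges overlapped. The within-group SD of such library medians was 0.0721 log2. Group-housed wild type library c was low for the members, with a median deviation of -0.101, and without 1 library in turn the median shift ran from 0.067 to 0.117.

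**Figure D3:**
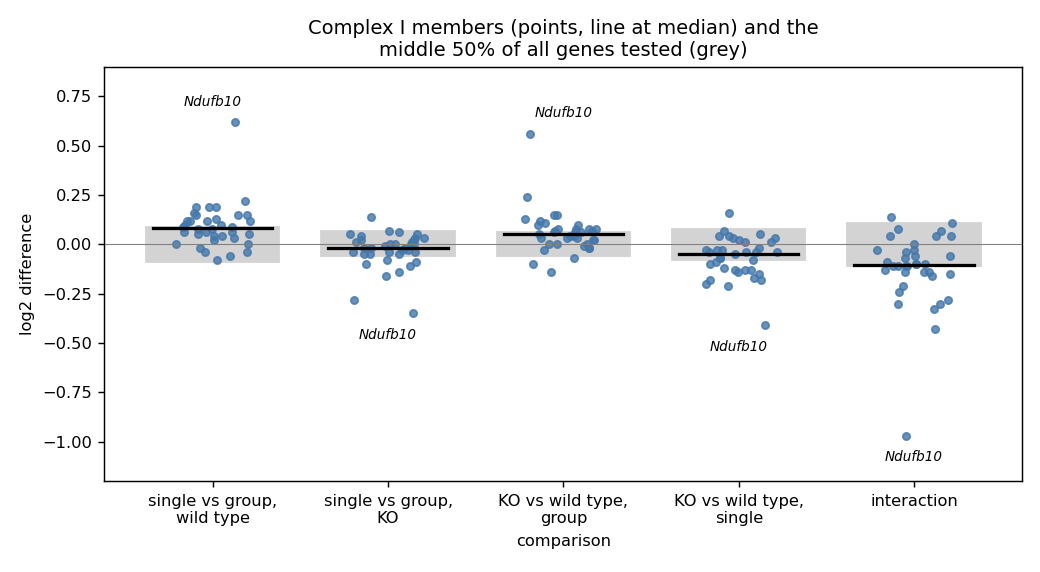
Log2 difference of each of the 36 members (points, spread sideways for legibility) in the 4 comparisons and the interaction, with a line at the members' median and a grey box over the middle 50% of all genes tested. The median is 0.084 for housing in wild type and -0.103 for the interaction, and Ndufb10 lies outside the other members in all 5.

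Ndufb10 had the smallest p of the members in every comparison. Ndufb10 (ENSMUSG00000040048, chr17:24722060-24724478 on GRCm38, minus strand) encodes a cysteine-rich accessory subunit on the intermembrane-space face of the distal membrane arm. Its log2 values were 7.45, 7.34 and 7.07 in group-housed wild type, 7.74, 8.02 and 7.97 in single-housed wild type, 8.0, 7.85 and 7.71 in group-housed KO, and 7.65, 7.24 and 7.61 in single-housed KO. Group-housed wild type lay below every library of single-housed wild type and of group-housed KO, and single-housed KO lay below both of these as well, overlapping group-housed wild type.

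In FPKM, Ndufb10 ran from 133.8 to 259.4 over the libraries. It was 1.54-fold higher in single- than in group-housed wild type, with a log2 difference of 0.62 ± 0.13 (SE), a 95% interval of 0.33 to 0.92 and an adjusted p of 0.194. It was 1.48-fold higher in KO than in wild type under group housing, with a log2 difference of 0.56 ± 0.13, an interval of 0.27 to 0.86 and an adjusted p of 0.9. In the other 2 comparisons the sign was opposite. Single housing in KO gave -0.35 ± 0.13 with an adjusted p of 0.995, and KO under single housing gave -0.41 ± 0.13 with an adjusted p of 0.567.

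The interaction for Ndufb10, the housing difference in KO minus that in wild type, was -0.97 ± 0.19 log2 with a 95% interval of -1.39 to -0.55 and an adjusted p of 0.471. The F test over the 4 groups gave an adjusted p of 0.419. The 4 comparisons share their groups, so a low group-housed wild type enters 2 of them and a low single-housed KO the other 2. With a term for the amino acid response the wild-type housing difference was 0.58, and with a term for Y-linked RNA it was 0.85, with adjusted p = 0.365 and 0.155. Library weights gave 0.69 and the lowest adjusted p of any setting, 0.0566.

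The next smallest p for housing in wild type and by the F test was that of Ndufs3. This core subunit of the matrix arm lies between the NADH module and the ubiquinone site. Ndufs3 (ENSMUSG00000005510, chr2:90894634-90904827 on GRCm38, minus strand) read 7.47, 7.33 and 7.36 in group-housed wild type, 7.61, 7.57 and 7.53 in single-housed wild type, 7.44, 7.38 and 7.54 in group-housed KO, and 7.39, 7.46 and 7.44 in single-housed KO. Single-housed wild type lay above every library of group-housed wild type and, apart from the 7.53 of library c against 7.54 in group-housed KO c, above all other libraries. The difference of single from group housing in wild type was 0.19 ± 0.05 log2 (95% interval 0.07 to 0.30, adjusted p = 0.240), and that of KO from wild type under single housing was -0.15 ± 0.05 (adjusted p = 0.576). The processed pseudogene Gm12251, which matches 75.7% of the transcript at 98.6% identity, has a row of its own in the table at 3.68 to 4.23 log2, so some reads of Ndufs3 may have been counted there or the reverse.

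Ndufv3, a small accessory subunit of the NADH module, followed. Ndufv3 (ENSMUSG00000024038, chr17:31520115-31531331 on GRCm38, plus strand) read 7.73, 7.54 and 7.61 in group-housed wild type, 7.88, 7.83 and 7.83 in single-housed wild type, 7.65, 7.86 and 7.73 in group-housed KO, and 7.83, 7.59 and 7.58 in single-housed KO. All 3 single-housed wild-type libraries lay above all group-housed ones, while single-housed KO a at 7.83 stood level with them and its libraries b and c below. The housing difference in wild type was 0.22 ± 0.08 log2 (95% interval 0.04 to 0.39, adjusted p = 0.314), and KO under single housing differed by -0.18 ± 0.08 (adjusted p = 0.621). With a term for the amino acid response, which was low throughout single-housed wild type and high in b and c of group-housed wild type, the housing difference was 0.11 with an adjusted p of 0.519. The share of that response in the difference was not tested further.

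Ndufa12, an accessory subunit of the matrix arm and a relative of the assembly factor Ndufaf2, was the member after these by the F test. Ndufa12 (ENSMUSG00000020022, chr10:94198720-94221443 on GRCm38, plus strand) read 7.07, 7.07 and 6.96 in group-housed wild type, 7.21, 7.1 and 7.24 in single-housed wild type, 7.04, 7.19 and 7.57 in group-housed KO, and 7.04, 6.92 and 7.0 in single-housed KO. Group-housed KO c at 7.57 was the highest library, and the next was single-housed wild type c at 7.24. Single-housed KO lay below group-housed KO in every library but met it closely, at 7.04 for the highest of the one and the lowest of the other when rounded. The housing difference in KO was -0.28 ± 0.11 log2 (adjusted p = 0.995) and became -0.13 without library c. The difference of KO from wild type under group housing was 0.24 ± 0.11 (adjusted p = 1.0), and 0.09 without that library.

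**Figure D4:**
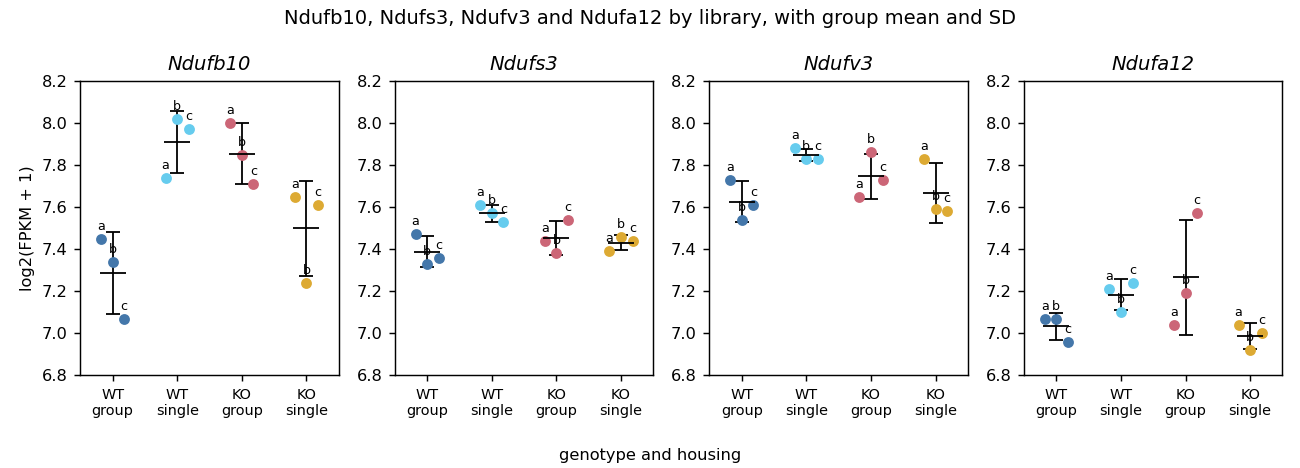
Log2(FPKM + 1) of Ndufb10, Ndufs3, Ndufv3 and Ndufa12 by group, each point 1 library with its letter, the bar at the mean and the whiskers at ± 1 SD (n = 3). Ndufb10 separates group-housed wild type (7.07 to 7.45) from single-housed wild type (7.74 to 8.02), and the high mean of Ndufa12 in group-housed KO rests on library c at 7.57.

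Ndufs4, an accessory subunit of the NADH module whose loss in mice is a model of Leigh syndrome, was the last of the 4 members with the smallest p for housing in wild type. Its log2 values were 6.46, 6.34 and 6.26 in group-housed wild type, 6.45, 6.52 and 6.45 in single-housed wild type, 6.42, 6.44 and 6.37 in group-housed KO, and 6.56, 6.32 and 6.42 in single-housed KO. Single housing was higher by 0.12 ± 0.07 log2 (adjusted p = 0.480), and the groups overlapped, since library a of group-housed wild type at 6.46 lay above 2 of the single-housed libraries.

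Single against group housing in KO split the members more evenly. Of the 36 members 14 were higher and 22 lower, where 50.3% and 49.6% of all genes were, and the median difference was -0.021 log2. The differences ran from -0.35 to 0.14, 0 members were called beside 0.00786% of all genes, and the lowest adjusted p was 0.995. At an unadjusted p under 0.05 there were 2 members, Ndufb10 and Ndufa12, both lower, which is 5.56% beside 4.36% of all genes (2.34% higher and 2.01% lower). In the same 2 members every single-housed library lay below every group-housed one, beside 3.33% of all genes, and in 0 members did they all lie above, beside 3.47%. The median turned to 0.027 without single-housed KO b and was -0.094 without single-housed KO a. It was 0.093 with the Y-linked term, which here sets library a of single-housed KO alone against group-housed KO. With the amino acid term it was -0.003.

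Among the members with the next smallest p in KO, Ndufc2, a subunit of the membrane arm, read 8.29, 8.36 and 8.33 in group-housed wild type, 8.32, 8.33 and 8.33 in single-housed wild type, 8.09, 8.37 and 8.22 in group-housed KO, and 8.43, 8.27 and 8.37 in single-housed KO. Its single-housed libraries were higher by 0.14 ± 0.06 log2 (adjusted p = 0.995), with the low 8.09 in group-housed KO a. Ndufs6, a zinc-binding subunit added late in assembly, read 7.61, 7.52 and 7.44 in group-housed wild type, 7.51, 7.57 and 7.61 in single-housed wild type, 7.55, 7.64 and 7.58 in group-housed KO, and 7.61, 7.35 and 7.5 in single-housed KO. Its difference was -0.10 ± 0.07 log2 (adjusted p = 0.995), and the groups overlapped for both genes.

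KO against wild type under group housing gave 26 members higher and 10 lower, where 48.1% and 51.8% of all genes were. The median difference was 0.053 log2 (-0.14 to 0.56), 0 members were called beside 0% of all genes, and the lowest adjusted p was 0.9. Only Ndufb10 had an unadjusted p under 0.05 (2.78% beside 3.66% of all genes, 1.78% higher and 1.88% lower). It was also the only member whose KO libraries all lay above the wild-type ones, beside 3.15% of all genes, and in 0 members did they all lie below, beside 3.86%. In the authors' deposited table, which gives this comparison with its own p-values, the same count of 1 member had p under 0.05, Ndufb10 with p = 0.00204 from limma, and 0 members had an adjusted p under 0.05. Ndufa12, Ndufc2 and Ndufb8 followed by p, with differences of 0.24, -0.10 and 0.13 log2 and overlapping groups. The median was 0.021 without group-housed wild type c, 0.034 without group-housed KO b and 0.085 without group-housed wild type a. By class, KO was higher in 4 of 7 core subunits, 6 of 9 accessory matrix-arm, 6 of 9 proximal and 9 of 10 distal membrane-arm subunits.

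KO against wild type under single housing leaned the other way. Of the members 26 were lower and 10 higher, where 50.9% and 49% of all genes were, and the median difference was -0.047 log2 (-0.41 to 0.16). There were 0 members called beside 0.0393% of all genes, with a lowest adjusted p of 0.567. At an unadjusted p under 0.05 there were 3 members, all lower (8.33% beside 7.93% of all genes, 4.07% higher and 3.86% lower), which were Ndufb10, Ndufs3 and Ndufv3. In Ndufa12, Ndufb10 and Ndufs3 all KO libraries lay below all wild-type ones (8.33% beside 8.06% of all genes), and in 0 members did they all lie above, beside 7.72%. By the authors' deposited table, p was under 0.05 for 2 members by limma and an adjusted p under 0.05 for 0, with 0.58 the lowest. The median was -0.123 without single-housed KO a, -0.009 without single-housed KO b and -0.097 without single-housed wild type a. With the Y-linked term it was the same -0.123. That term is estimated within single-housed KO, and in this comparison it amounts to leaving out library a. With the amino acid term the median was -0.013. Of 8 markers of other interneurons 7 were higher in KO (median 0.159), with summed FPKM of 506 to 683 against 359 to 461 in wild type, with none of the 8 at 0. Of 5 markers of microglia 5 were higher, with overlapping sums of 10.9 to 14.5 against 11.5 to 11.9 FPKM. Their part in the members' difference was not tested.

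The interaction was negative in 28 of 36 members and positive in 8, where 50% of all genes lay on either side, and its median was -0.103 log2 (-0.97 to 0.14). There were 0 members called beside 0.00786% of all genes, and 4 members with an unadjusted p under 0.05 (all negative, beside 7.71% of all genes, 4.14% positive and 3.57% negative), Ndufb10, Ndufs3, Ndufa12 and Ndufv3. Their interactions were -0.97, -0.21, -0.43 and -0.30 log2, and the adjusted p was 0.646 for each but Ndufb10. The median interaction was -0.169 without single-housed KO a and -0.054 without single-housed KO b. It was -0.031 with a term for the amino acid response and -0.178 with library weights. For any difference among the 4 groups, 0 members were called beside 0.0629% of all genes, and 2 (5.56% beside 7.35%) had an unadjusted p under 0.05, Ndufb10 and Ndufs3.

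Within the fit of 4 group means, intervals per gene limit the size of a difference between the labelled groups on the quantile-normalized values. They are not adjusted for the number of genes, and they take in no term for Y-linked RNA or the amino acid response. The 95% interval of a member's difference reached 0.17 log2 to either side in the median (0.08 to 0.34). It lay wholly within ± 0.5 log2 for 33 members in the comparison of housing in wild type, 34 in that of housing in KO, 35 for genotype under group housing and 33 for genotype under single housing, and within ± 1 for all 36 in each of the 4. For the interaction the interval was wider, 0.24 in the median, and within ± 0.5 for 28 members.

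The members varied together between libraries, most of all in single-housed KO. In library a of that group the median member stood 0.120 log2 above its mean, and a was the highest library for 14 of 36 members. In library b the median stood 0.126 below (-0.126), and b was the lowest library for 13. In group-housed wild type the library medians ran from -0.101 to 0.010, in single-housed wild type from -0.002 to 0.065 and in group-housed KO from -0.036 to 0.036. Pvalb moved alongside, at 10.28 in library a and 9.65 in library b, its highest and lowest values. The nuclear subunits of complexes II to V moved the same way, with median deviations of 0.090 in library a and -0.105 in library b. Enzymes of the tricarboxylic acid cycle stood at -0.077 and 0.001. Library a also had no Y-linked RNA and a low amino acid response (-0.44), while b had both (a response of 0.50), as did c (0.56), and their part was not tested.

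This movement differed by transcript length. The members are short, with a median of 760 nt (315 to 2590) against 2845 for the genes tested that have a length, and 24 of 36 are under 1000 nt. In single-housed KO a the 24 shorter members stood at 0.164 in the median, with 22 of 24 above their mean, while the 12 longer ones stood at -0.054, with 5 of 12 above. In library b the shorter stood at -0.151 and the longer at -0.040. The 794 other genes under 1000 nt moved in the same directions, by 0.087 in library a and -0.045 in library b, and the 10298 longer genes stood at -0.010 and 0.006. What in these libraries moves with length was not tested. The housing shift in wild type was present in both length classes, at 0.083 for the shorter members (22 of 24 higher) and 0.111 for the longer (9 of 12), against 0.037 for other short genes and -0.007 for other long ones.

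**Figure D5:**
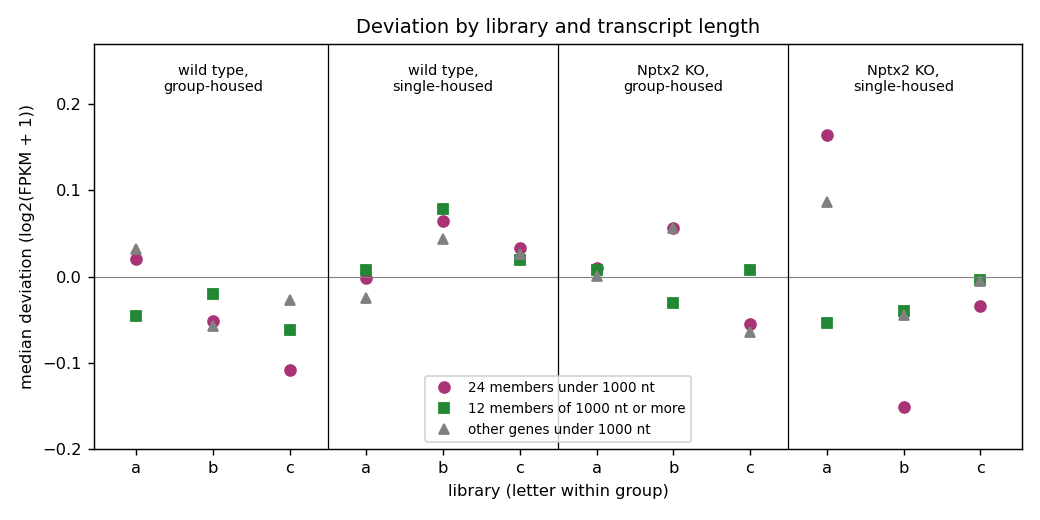
Median deviation from the 12-library mean on the log2(FPKM + 1) scale for each library (letters within groups), with circles for the 24 members under 1000 nt, squares for the 12 longer members and triangles for the other genes under 1000 nt. Circles and triangles reach 0.164 and 0.087 in single-housed KO a, where the squares are at -0.054.

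Other genes of mitochondrial energy metabolism were set beside the members. Of the nuclear subunits of complexes II to V, 38 were tested and 0 were called in any comparison. Single housing was higher in wild type in 30 of 38 (median 0.044), beside 50.9% of all genes. An unadjusted p under 0.05 was found for 4 of the 38, beside 12.3% of all genes. KO was lower under single housing in 30 of 38 (-0.042), beside 50.9% of all genes. Housing in KO gave 17 higher and 21 lower, and KO under group housing 28 higher and 10 lower. The smallest p fell to Atp5h, a stalk subunit of ATP synthase, higher by 0.20 ± 0.06 log2 in single-housed wild type (adjusted p = 0.273), and to Sdhb, the iron-sulphur subunit of succinate dehydrogenase, higher by 0.14 ± 0.05 (adjusted p = 0.301).

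The complex I assembly factors, of which 15 of 19 listed were tested, did not lean with the subunits in wild type, with 8 higher and 7 lower in single housing, a median of 0.001 and 0 called in any comparison. Their smallest p were those of Ndufaf3, higher by 0.38 ± 0.14 log2 in single-housed KO (adjusted p = 0.995), and Tmem126a, at -0.22 ± 0.09 in single-housed wild type (adjusted p = 0.369). Ndufab1, the acyl carrier protein that binds the LYR subunits, gave 0.12 for housing in wild type, -0.14 for housing in KO, 0.16 for KO under group housing and -0.11 for KO under single housing.

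Enzymes of the tricarboxylic acid cycle, which supply the NADH, gave 5 higher and 10 lower of 15 for housing in wild type (median -0.010), 2 and 13 in KO (-0.039), 9 and 6 for KO under group housing (0.007) and 5 and 10 under single housing (-0.015), with 0 called. Dlst, of the oxoglutarate dehydrogenase complex, stood at -0.14 ± 0.04 for housing in wild type (adjusted p = 0.270), and Idh3g, of isocitrate dehydrogenase, at -0.27 ± 0.11 for housing in KO (adjusted p = 0.995).

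Regulators of mitochondrial biogenesis gave 5 higher and 8 lower of 13 for housing in wild type and 2 and 11 in KO, with 0 called in any comparison. The smallest p were those of the GABP subunits Gabpb1, at -0.70 ± 0.38 in wild type (adjusted p = 0.478), and Gabpa, at -0.14 ± 0.07 in KO (adjusted p = 0.995). Antioxidant genes, which meet the superoxide that complex I can release, gave 6 higher and 4 lower of 10 in wild type and 4 and 6 in KO, with 0 called. Among them Gpx1, a glutathione peroxidase, was 2.24 ± 0.68 log2 higher in KO under group housing (adjusted p = 1.0). It read 5.75 ± 0.14 (SD) in group-housed KO and 3.51 ± 0.14 in group-housed wild type. The SE also takes in the spread of the single-housed groups, with SDs of 1.3 in wild type and 1.36 in KO. Sod2, the superoxide dismutase of mitochondria, stood at -0.13 ± 0.05 for housing in wild type (adjusted p = 0.349).

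Near-identical copies and overlapping genes touch some of these values. Processed pseudogenes matching at least 50% of a member's transcript at 90% identity or more were found for 9 members, and for 3 of them the copy has its own row. Besides Gm12251 these were Gm6444, a copy of the X-linked Ndufb11 at 0.403 to 1.5 FPKM, and BC002163, a copy of Ndufs5 at 80.1 to 105 FPKM and 99.4% identity, beside 300.1 FPKM for Ndufs5 itself. Exons of genes on the opposite strand cover 39.0% of the Ndufb6 transcript (Smim27), 30% of Ndufa13 (Tssk6) and 20% of Ndufb5 (Mrpl47), and the sources do not say how strand entered the counting. On the same strand, exons of Gm42420 cover 31.9% of Ndufb2, those of Gm49356 28.6% of Ndufb9 and those of Gm20538 19.7% of Ndufb8, which strand cannot separate, and these 3 genes have no row of their own in the table analysed here. Values of these members are uncertain to that extent.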

How the data were processed

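Ribosome-associated RNA of 12 libraries was prepared for sequencing with a kit that keeps strand, per the labels' protocols. The authors deposited log2(FPKM + 1) values per gene and library, together with log2 differences and p-values of their KO against wild-type comparisons. The submitters' processing notes name HISAT2, StringTie and limma and the build GRCm38, with no versions.

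Genes that reached an FPKM of 1 in 3 or more libraries (12716 of 13190) were fitted with limma 3.58.1 in R 4.3.3, with 4 group means over all 12 libraries, eBayes with a variance trend, and Benjamini-Hochberg adjustment per comparison with a threshold of 0.05. The fit was tested on simulated data with 50 genes changed at each size. Over the 4 comparisons of 2 groups it recovered 6 to 14% of changes of 0.25 log2 and 48 to 60% of changes of 0.5 log2. The simulated data also held changes of 1 and 2 log2 and gave 125 to 132 calls per comparison, against 0 to 5 in the deposited data. With more calls the adjusted threshold is easier to pass, so recovery in the deposited data may be lower. Changes of such size would thus often not be called. A log2 difference is on the log2(FPKM + 1) scale. Quantile normalization removes differences of overall distribution between libraries, and the depth is unknown, so no counting interval was given. Transcript lengths and overlaps came from GENCODE M21 (GRCm38), and copies from BLAST 2.17.0. Alternatives were the pseudocount (0.1 and 0.5), the filter, the variance trend, library weights, the libraries fitted, terms for Y-linked RNA and the amino acid response, other member lists, and leaving out each library.

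Members and lists were chosen with earlier results of these data known. Values in every library were given for core subunits, the 4 members with the smallest p per comparison, the 3 with the smallest F test p, and the 3 highest and 3 lowest by level, and 2 genes were named per other list. The values of 1 member are not reported here, although it is in the counts and medians.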

Additional observations from a re-analysis of the deposited data

Results flagged for a closer look

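In Ndufb10 the housing difference had opposite signs in the 2 genotypes, with all 3 single-housed libraries above the group-housed ones in wild type and all 3 below them in KO. In the same gene the genotype difference had opposite signs in the 2 housings. Both are the same contrast, an interaction of -0.97 log2, which limma tested with an adjusted p of 0.471, so the difference did not pass the threshold.

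In Ndufa12 the housing difference was also opposite in the 2 genotypes, upward in every library of wild type and downward in every library of KO, with an interaction of -0.43 log2 and an adjusted p of 0.646, which did not pass the threshold. Group-housed KO c at 7.57 was the library farthest from the others in this gene.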

How the results depend on the processing

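No member passed the threshold under any alternative, in any comparison or the F test. The median difference of the members moved past the spread between libraries (0.0721 log2) with a term for Y-linked RNA, to 0.268 for housing in wild type, 0.093 for housing in KO and -0.123 for KO under single housing. For KO under single housing this term amounts to leaving out single-housed KO a, so that it is no separate alternative there. Library weights took the median interaction to -0.178 and the term for the amino acid response took it to -0.031. Without 1 library in turn the median ran from 0.067 to 0.117 for housing in wild type, from -0.094 to 0.027 for housing in KO, from 0.021 to 0.085 for KO under group housing, from -0.123 to -0.009 for KO under single housing and from -0.169 to -0.054 for the interaction. Ndufs6 turned to 0.02 for housing in KO with the Y-linked term. In this comparison the term sets library a of single-housed KO alone, at 7.61 for Ndufs6, against group-housed KO, with a mean of 7.59. Ndufb10 kept its direction in every alternative, at 0.52 to 0.85 for housing in wild type with adjusted p from 0.0566 to 0.475. Over all genes, calls for housing in wild type were 5, 8 with only the 2 groups fitted, 24 with library weights or the Y-linked term and 1 with the amino acid term. For housing in KO they were 1, 16 with only the 2 groups and 17 with the Y-linked term, for KO under group housing 0, 8 with only the 2 groups and 1 with the Y-linked term, and for KO under single housing 5, 9 with only the 2 groups or the Y-linked term, and 16 with library weights. The interaction called 1, 2 with the amino acid term and 0 with no variance trend or either other pseudocount. The F test called 8, and 21 with the Y-linked term. Without 1 library in turn the calls over all genes ran from 1 to 12 for housing in wild type, from 1 to 8 for housing in KO, from 0 to 11 for KO under group housing, from 5 to 9 for KO under single housing, from 0 to 8 for the interaction and from 6 to 22 for the F test, where 11, 8 and 22 were the counts without group-housed wild type a. No paired analysis was possible because the columns of the table carry no replicate numbers. Precision is limited by 3 libraries a group, and the depth behind each value is unknown.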
